A study of Arabidopsis thaliana with 15 samples.

Results

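The genes described here are 45 of the 33602 annotated Arabidopsis thaliana loci in the deposited tables, namely those whose transcripts were raised above wild type (WT) both in the chromatin mutant lhp1 and in the mutant labelled ebs shl. Members were chosen by their mean level, in CPM (counts per 1000000 counts of the library), which had to be at least 2 in both mutants and at least 3 times the WT mean in both. The rule also names 17 floral and other well-known loci to leave out, and 12 of these were among the 57 loci that met the thresholds. The values of lhp1, ebs shl and WT therefore chose the members, and their differences are given as a description without a test.

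Messenger RNA had been sequenced from whole 3-week-old seedlings of the Col-0 accession, grown on diluted MS medium under short days with 8 h of light. The 15 libraries comprised 3 biological repeats each of ebs shl lhp1, ebs shl, lhp1, emf1 and WT. The labels name no alleles and no transgenes. RNA came from the miRNeasy Micro Kit for ebs shl lhp1 and emf1 and from the RNeasy Plus Mini Kit for ebs shl, lhp1 and WT, so that in any comparison across the kits the kit and the genotype cannot be told apart. The libraries labelled ebs shl lhp1 and ebs shl are called the labelled triple mutant and the labelled double mutant below, because transcripts of the named genes did not all match the labels, and lhp1 and emf1 stand for the libraries with those labels.

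Polycomb repression keeps developmental genes silent in tissues where they are not needed. Polycomb repressive complex PRC2 places methyl groups on lysine 27 of histone H3, and LHP1, a chromodomain protein, binds this mark. EBS and its relative SHL are histone readers that carry a BAH domain and a PHD finger and bind modified histone H3, and EMF1, found in plants alone, is thought to help Polycomb complexes compact their targets. Loss of these proteins is known for early flowering and for floral genes that become active in seedlings.

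Library totals lay between 11730989 and 16247262 counts, and nuclear ribosomal RNA took 0.987 to 1.68% of the counts in the labelled triple mutant, 0.217 to 0.331% in the labelled double mutant, 0.211 to 0.328% in lhp1, 0.594 to 0.829% in emf1 and 0.234 to 0.369% in WT. EBS stood at 1.79 to 2.34 CPM in the labelled triple mutant and 1.85 to 3.62 CPM in the labelled double mutant, against 25.9 to 28.3 CPM in WT. LHP1 stood at 17.98 to 21.4 CPM in the labelled triple mutant and 11.5 to 11.7 CPM in lhp1, against 20.00 to 22.1 CPM in WT, so it was lower than WT in lhp1 and overlapped WT in the labelled triple mutant. SHL was above WT where the labels name it, at 149 to 199 CPM in the labelled triple mutant and 229 to 244 CPM in the labelled double mutant, against 41.04 to 45.1 CPM in WT. EMF1 stood at 18.9 to 19.6 CPM in emf1, against 29.5 to 29.7 CPM in WT. It was above WT in the other mutants, at 66.3 to 79.8 CPM in the labelled triple mutant. In the labelled double mutant it held 125 to 136 CPM and in lhp1 49.2 to 54.8 CPM. A mutation need not lower the transcript of its gene, and the reason why LHP1 differed between lhp1 and the labelled triple mutant was not tested. LHP1 also overlaps an opposite-strand locus, and the counting cannot be assumed to separate strands. The summed level of 12 root markers was 34.8 to 46.5 CPM in the labelled triple mutant and 41.4 to 47.7 CPM in emf1, against 114 to 167 CPM in WT, and that of 14 seed storage and late embryogenesis markers was 81.9 to 106 CPM and 41.4 to 60.3 CPM, against 0.326 to 1.33 CPM. That sum came mostly from the late embryogenesis gene M17, at 66.4 to 90.6 CPM in the labelled triple mutant and 17.4 to 42.6 CPM in emf1, against 0 to 0.695 CPM in WT, and from PAP85, at 10.5 to 11.9 and 14.3 to 23.5 CPM, against 0 to 0.134 CPM. Of the 14 markers 4 passed the filter on low counts, and the storage protein genes SESA1, SESA2, SESA3, SESA4, CRU2 and CRU3 stood at or near 0 in these genotypes. In such bulk tissue fewer cells of a type and less RNA per cell cannot be told apart, and the part of these organ differences in the members' values was not tested.

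The ratio of mean CPM to WT spanned 3.18 to 357 in the labelled double mutant (median 15.6) and 3.05 to 311 in lhp1 (median 7.73). All 3 libraries of the labelled double mutant and all 3 of lhp1 lay above all 3 of WT for each of the 45 members, as the choice of members made likely. A mean of at least 2 CPM in both mutants was reached by 17198 loci. Among all 33602 loci, 357 had at least 2 CPM and at least 3 times the WT mean in the labelled double mutant. In lhp1 the same held for 91. The members just inside the threshold were BZIP27 (AT2G17770), with a lower ratio of 3.05, ABCF2 (AT5G09930), with 3.14, and ERF12 (AT1G28360), with 3.16. Just outside lay SPL4 at 2.98, NF-YA2 at 2.96 and VSP1 at 2.90, all of them short of the threshold in lhp1.

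**Figure D1:**
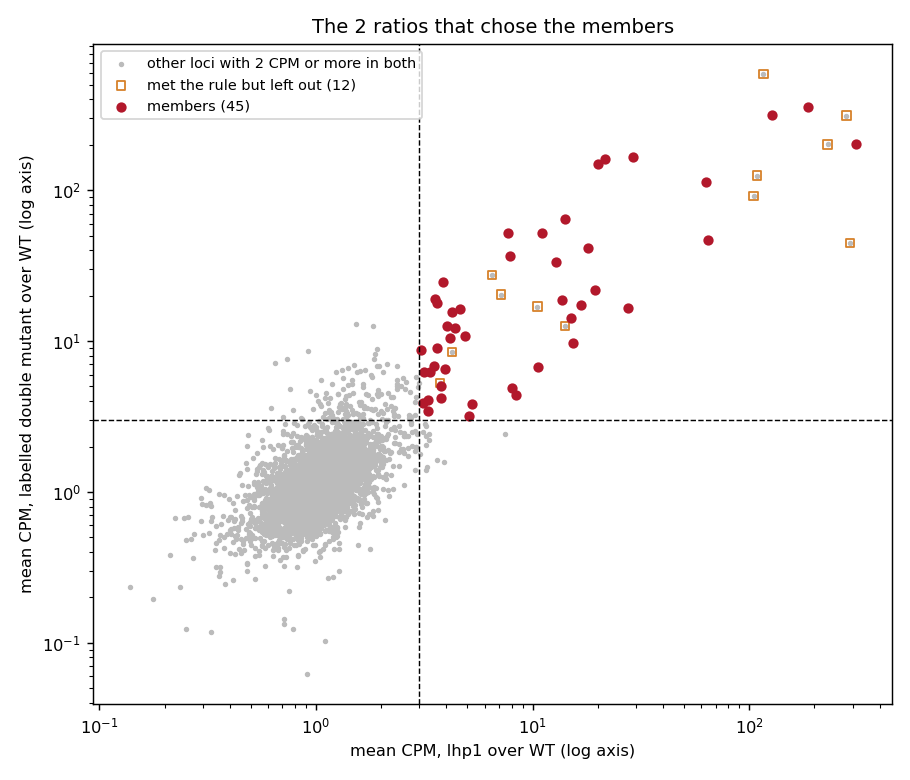
Ratio of mean CPM over WT in the labelled double mutant (vertical, log axis) and in lhp1 (horizontal, log axis) for loci with at least 2 CPM in both mutants and a WT mean above 0. The 45 members (filled) lie right of and above the dashed lines at a ratio of 3, together with 12 loci that were left out by name (open squares).

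Added up, the 45 members took 269 to 337 CPM in the labelled triple mutant, 708 to 767 CPM in the labelled double mutant, 357 to 387 CPM in lhp1, 16.7 to 31.1 CPM in emf1 and 49.1 to 64.1 CPM in WT. On this scale the 5 genotypes did not overlap and emf1 stood lowest, but with TMM scaling the labelled triple mutant overlapped lhp1. At the level of single members, the mean was under 1 CPM for 11 in the labelled triple mutant, 41 in emf1 and 33 in WT. All 45 passed the filter on low counts for the test across loci, which a locus could do through the groups that chose it.

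**Figure D2:**
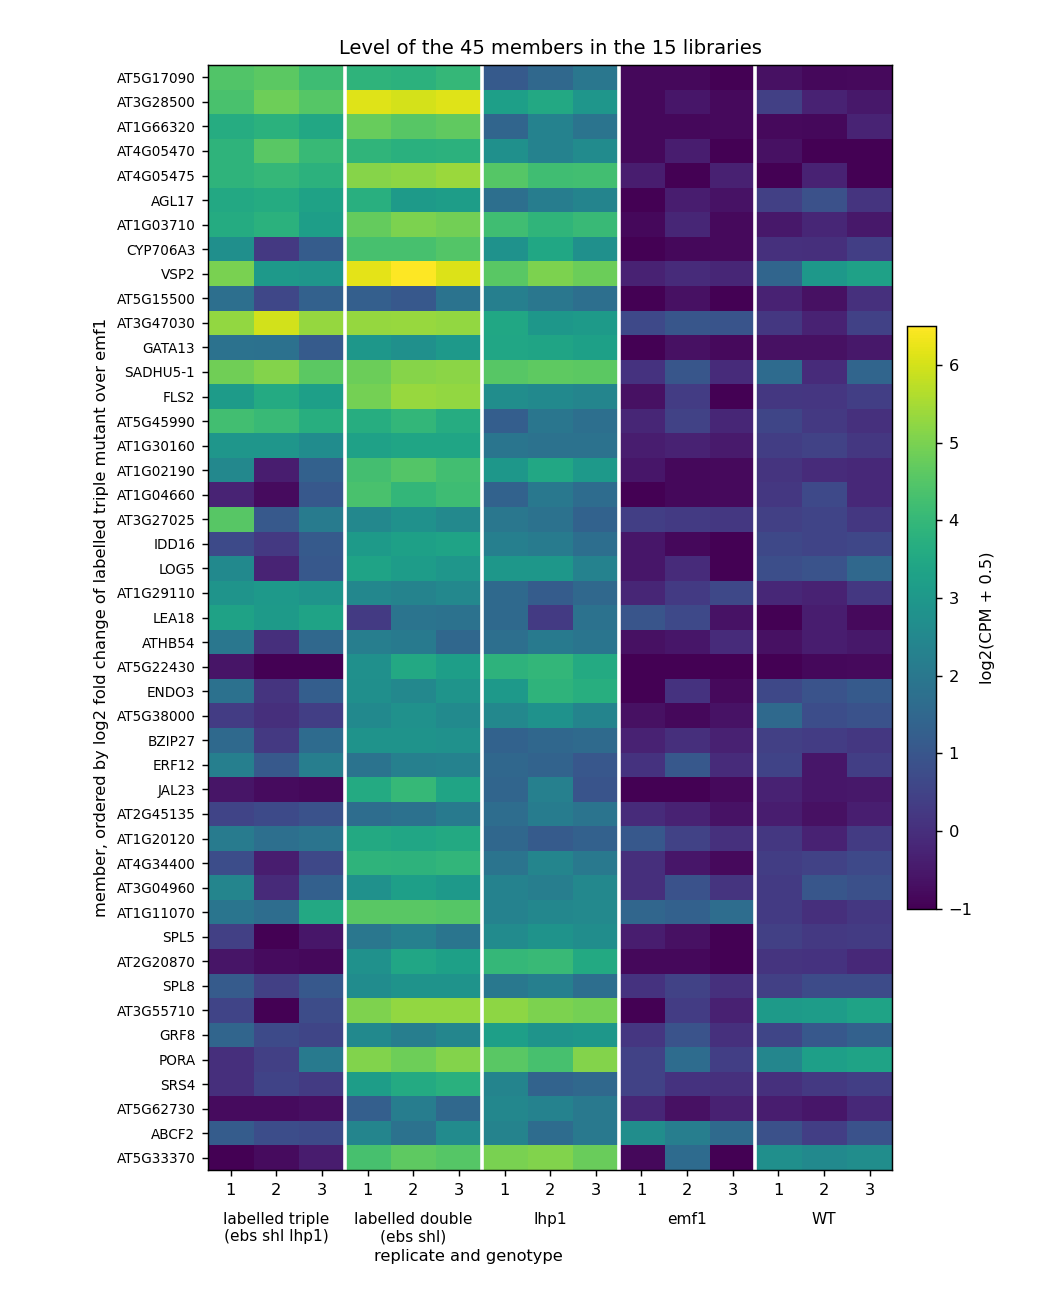
Level of each member in each library, as log2(CPM + 0.5) by colour, with members as rows in the order of their log2 fold change between the labelled triple mutant and emf1. The columns of the labelled double mutant and lhp1 are brighter than those of WT in every row, though many lhp1 values are low on this scale. Those of emf1 are dark for nearly all rows. The labelled triple mutant is brighter in the upper rows and dark in many of the lower ones.

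The labelled triple mutant and emf1 share the RNA kit, and no library of either was used to choose the members, so this comparison could be tested. Of the 45 members, 33 were higher in the labelled triple mutant than in emf1 and 1 was lower at an adjusted p under 0.05 (edgeR quasi-likelihood test on TMM-scaled counts, Benjamini-Hochberg over 20477 loci), which is 73.3% and 2.22% of them. Over all tested loci 23.6% were higher and 20.5% lower. The median log2 fold change was 3.18 over the members and 0.05 over all tested loci. Without replicate 1 of the labelled triple mutant the members' median was 2.34. When the libraries of these 2 genotypes alone were fitted, 29 of the members passed the filter, and 21 of them were called higher and 1 lower, beside 18.9% and 16.3% of all loci tested in that fit. The other members passed the filter only where the remaining libraries, which include those that chose the members, were fitted too. Of the members called higher, these were AT1G02190, AT1G04660, IDD16, ATHB54, BZIP27, AT4G34400, CYP706A3, LOG5, ENDO3 and AT5G38000. Their adjusted p-values below are therefore not free of the choice of members. The members had been chosen for high transcripts in mutants whose labels share mutated genes with the labelled triple mutant and none with emf1.

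**Figure D3:**
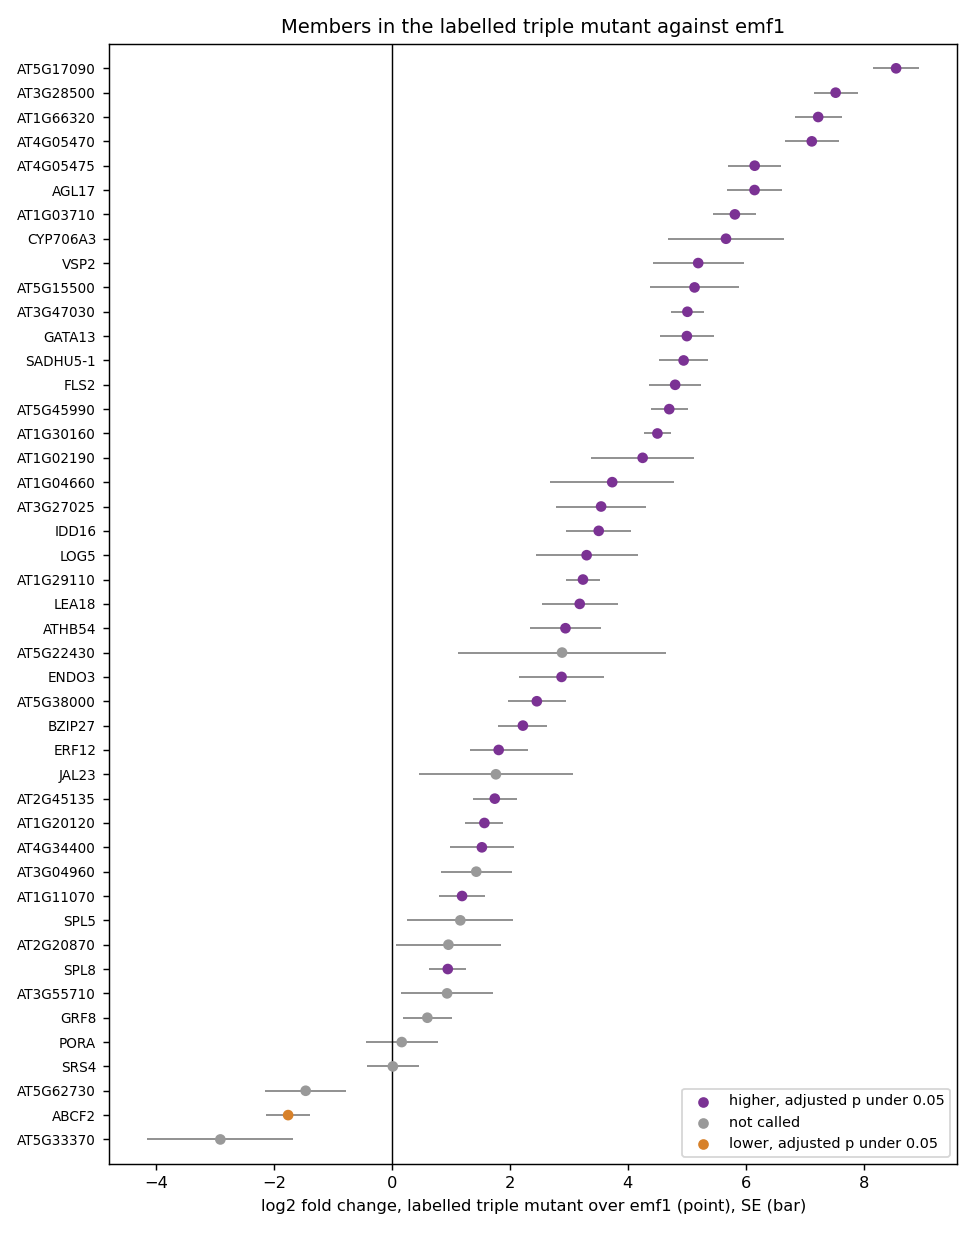
Log2 fold change of each member in the labelled triple mutant over emf1 (point) with its SE (bar), from the edgeR fit. The 33 members called higher are purple, ABCF2, called lower, is orange, and the 11 others are grey.

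The members were taken by what their products are annotated to do, in words of the RefSeq annotation of TAIR10.1, which matched all 45. Of these, 20 had a symbol and 25 only a locus number. Transcription factor families made up 11 members (24.4% of them, beside 1.78% of tested loci with the same product words). F-box or RNI-like proteins made up 4, cystatin/monellin superfamily proteins 2 and GDSL-like lipases 2. The families were grouped after the members were known, so these shares are a description. The words for transcription factors followed the members' own products and miss other such families. The 1.78% is therefore not the share of all transcription factors, and the 2 shares cannot be compared.

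Among transcription factor genes, AGL17 (AT2G22630), a MADS-box gene known as a promoter of flowering, was the one member that is also on one of the gene lists below. Its libraries held 12.8, 7.96 and 8.56 CPM in the labelled double mutant and 2.81, 4.06 and 4.71 CPM in lhp1, against 0.847, 1.33 and 0.602 CPM in WT. It held 11.1, 11.8 and 9.55 CPM in the labelled triple mutant, against 0, 0.254 and 0.149 CPM in emf1, without overlap (log2 fold change 6.15, SE 0.46, adjusted p = 7.66e-07). Values of the labelled triple mutant overlapped those of the labelled double mutant and lay above lhp1. GATA13 (AT2G28340), a zinc finger gene of the GATA family, was among the most strongly raised and higher in lhp1 than in the labelled double mutant. It held 7.41, 6.301 and 7.69 CPM in the labelled double mutant and 10.3, 9.98 and 9.02 CPM in lhp1, against 0.130, 0.126 and 0.201 CPM in WT, and these 3 groups did not overlap. In the other genotypes it held 3.07, 2.98 and 1.72 CPM in the labelled triple mutant, against 0, 0.127 and 0.0745 CPM in emf1, and with 3 counts in all emf1 libraries the ratio was 37.4 (95% counting interval 12.4 to 184) (adjusted p = 3.2e-06). Without emf1 replicate 2 the log2 fold change over emf1 was 7.01 for AGL17 and 5.81 for GATA13.

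A pair of SQUAMOSA PROMOTER BINDING PROTEIN-LIKE genes was present. SPL5 (AT3G15270), a target of the microRNA miR156 that promotes the change from the juvenile to the adult phase, held 3.46, 4.33 and 3.26 CPM in the labelled double mutant and 5.69, 6.77 and 5.86 CPM in lhp1, against 0.847, 0.695 and 0.736 CPM in WT. In the other genotypes it held 0.852, 0 and 0.185 CPM in the labelled triple mutant, against 0.252, 0.127 and 0 CPM in emf1, so that both groups stood at or below 1 CPM and overlapped (adjusted p = 0.32). The libraries of lhp1 all lay above those of the labelled double mutant. SPL8 (AT1G02065), known for its part in anther development, had 5.79, 6.77 and 6.77 CPM in the labelled double mutant and 3.53, 4.21 and 2.76 CPM in lhp1, against 0.847, 1.14 and 1.14 CPM in WT. It had 1.705, 0.851 and 1.601 CPM in the labelled triple mutant, against 0.568, 0.890 and 0.521 CPM in emf1 (log2 fold change 0.94, SE 0.32, adjusted p = 0.0256), and single libraries of these genotypes overlapped. The call of SPL8 was lost without replicate 1 or 3 of the labelled triple mutant (adjusted p = 0.106 and 0.0877) and without replicate 1 or 3 of emf1 (adjusted p = 0.0809 and 0.0809). Both SPL genes overlap a locus on the other strand, so their levels are uncertain.

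Regulators of organ growth and hormone action followed. IDD16 (AT1G25250), of the INDETERMINATE DOMAIN zinc finger family, held 8.05, 9.14 and 9.602 CPM in the labelled double mutant and 4.25, 3.85 and 2.76 CPM in lhp1, against 1.04, 0.948 and 1.003 CPM in WT. It held 1.11, 0.681 and 1.66 CPM in the labelled triple mutant, against 0.189, 0.0636 and 0 CPM in emf1 (log2 fold change 3.50, SE 0.55, adjusted p = 0.000192), and it too overlaps a locus on the other strand. Every library of the labelled triple mutant lay above emf1 and below the labelled double mutant. SRS4 (AT2G18120), of the SHI-related family that acts in style and stamen development, averaged 10.99 ± 2.300 CPM in the labelled double mutant and 3.098 ± 1.42 CPM in lhp1, against 0.673 ± 0.142 CPM in WT (SD, n = 3 each, here and below). In the labelled triple mutant it averaged 0.729 ± 0.212 CPM, against 0.659 ± 0.196 CPM in emf1, with overlapping libraries (adjusted p = 0.986). GRF8 (AT4G24150), a growth-regulating factor of a family that promotes cell division in leaves, was another gene with its highest values in lhp1, since it held 5.44, 4.096 and 4.99 CPM in the labelled double mutant and 8.98, 6.92 and 7.41 CPM in lhp1, against 0.977, 1.58 and 2.01 CPM in WT. It held 2.22, 1.11 and 0.985 CPM in the labelled triple mutant, against 0.631, 1.398 and 0.521 CPM in emf1, also overlapping (adjusted p = 0.262).

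BZIP27 (AT2G17770), also known as FDP, a relative of the FD protein that works with FT at the shoot tip, averaged 6.62 ± 0.198 CPM in the labelled double mutant and 2.31 ± 0.207 CPM in lhp1, against 0.758 ± 0.0890 CPM in WT. It was 1.91 ± 1.07 CPM in the labelled triple mutant, against 0.374 ± 0.117 CPM in emf1 (log2 fold change 2.22, SE 0.41, adjusted p = 0.000707). The homeodomain-leucine zipper gene ATHB54 (AT1G27045) had 3.38 ± 0.922 CPM in the labelled double mutant and 3.27 ± 0.451 CPM in lhp1, against 0.195 ± 0.0614 CPM in WT, and no gap between the 2 mutants. ATHB54 was called higher in the labelled triple mutant, with 2.11 ± 1.47 CPM, against 0.255 ± 0.170 CPM in emf1 (log2 fold change 2.94, SE 0.61, adjusted p = 0.00142). ERF12 (AT1G28360), an ethylene response factor family gene, had 3.98 ± 0.758 CPM in the labelled double mutant and 2.004 ± 0.405 CPM in lhp1, against 0.635 ± 0.389 CPM in WT. With 3.34 ± 1.49 CPM in the labelled triple mutant, against 0.868 ± 0.627 CPM in emf1, it was called higher (log2 fold change 1.81, SE 0.49, adjusted p = 0.00886), and the log2 fold change was 2.55 without emf1 replicate 2. AT4G34400, of the B3 DNA-binding family, was highest in the labelled double mutant. Its libraries held 14.1, 13.8 and 14.9 CPM in the labelled double mutant and 3.21, 4.85 and 3.57 CPM in lhp1, against 0.782, 0.885 and 1.07 CPM in WT. It held 1.19, 0.255 and 1.05 CPM in the labelled triple mutant, against 0.505, 0.191 and 0.0745 CPM in emf1 (log2 fold change 1.52, SE 0.55, adjusted p = 0.0357), and single libraries of these genotypes overlapped. That call was lost without replicate 1 or 3 of the labelled triple mutant (adjusted p = 0.141 and 0.119) or without emf1 replicate 2 or 3 (adjusted p = 0.106 and 0.11), and the log2 fold change was 2.47 without emf1 replicate 1.

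Genes annotated to F-box or RNI-like proteins gave some of the clearest contrasts. F-box proteins select substrates for ubiquitin ligases, but AT4G05470 and AT4G05475 are annotated as RNI-like only. AT4G05470 and AT4G05475 are direct neighbours on the same strand of chromosome 4, with 82.7% identity between their transcripts, and were the only members within 5 annotated loci of one another. AT4G05475 held 34.5, 37.1 and 41.1 CPM in the labelled double mutant and 22.7, 17.97 and 18.4 CPM in lhp1, against 0, 0.316 and 0 CPM in WT. It held 14.2, 15.3 and 13.5 CPM in the labelled triple mutant, against 0.252, 0 and 0.298 CPM in emf1 (log2 fold change 6.15, SE 0.45, adjusted p = 6.44e-07), so the labelled triple mutant stood far above emf1, and below lhp1 on library totals but not with TMM scaling. AT4G05470 held 14.5, 13.1 and 13.6 CPM in the labelled double mutant and 6.34, 4.56 and 5.66 CPM in lhp1, against 0.130, 0 and 0 CPM in WT. Its WT libraries held 2 counts together, and the ratio to WT was 317 (95% counting interval 87.3 to 2622) in the labelled double mutant and 127 (95% counting interval 34.7 to 1052) in lhp1. It held 14.1, 23.3 and 15.95 CPM in the labelled triple mutant, against 0.0631, 0.254 and 0 CPM in emf1 (log2 fold change 7.12, SE 0.46, adjusted p = 2.32e-07), and here the labelled triple mutant overlapped the labelled double mutant on library totals and lay above it with TMM scaling. Reads from 2 loci this alike may in part be shared between them, depending on how the authors counted.

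AT1G66320, an F-box/RNI-like gene on another chromosome, held 26.4, 23.00 and 24.99 CPM in the labelled double mutant and 2.25, 4.56 and 3.17 CPM in lhp1, against 0.0651, 0.0632 and 0.334 CPM in WT. The labelled double mutant stood 7.46 times as high as lhp1. It held 11.9, 13.3 and 10.9 CPM in the labelled triple mutant, against 0.0631, 0.0636 and 0.0745 CPM in emf1, and with 3 counts in emf1 the ratio was 179 (95% counting interval 60.8 to 869.5) (adjusted p = 4.92e-08). Between the labelled double mutant and lhp1 stood the labelled triple mutant, without touching either. AT3G47030, annotated with an F-box and an associated interaction domain, overlapped between the labelled triple mutant and the labelled double mutant on library totals, and was higher in the labelled triple mutant with TMM scaling. Its libraries held 39.5, 40.3 and 38.3 CPM in the labelled double mutant and 10.7, 7.41 and 7.95 CPM in lhp1, against 0.651, 0.316 and 0.870 CPM in WT. It held 38.2, 63.2 and 38.9 CPM in the labelled triple mutant, against 1.07, 1.53 and 1.42 CPM in emf1 (log2 fold change 5.01, SE 0.27, adjusted p = 4.51e-08), and replicate 2 of the labelled triple mutant was the highest of all 15 libraries. Without emf1 replicate 2 the log2 fold change over emf1 was 8.61 for AT4G05470 and 5.53 for AT4G05475.

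**Figure D4:**
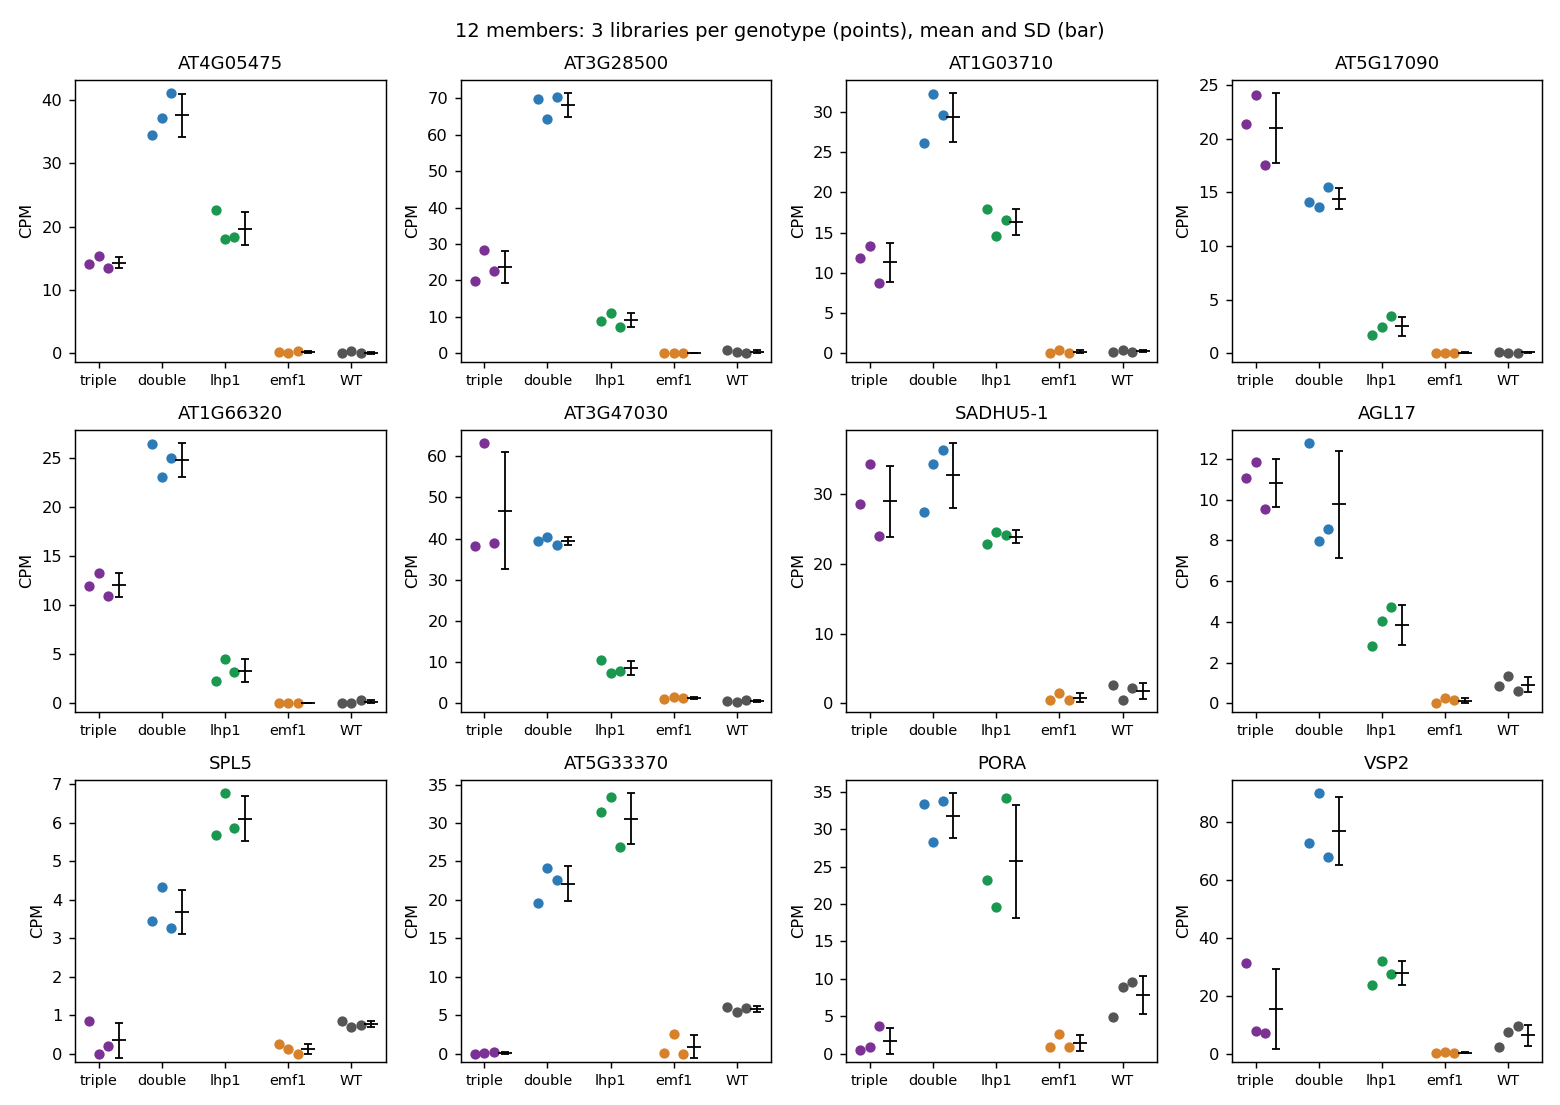
CPM in each library (points) of 12 members, with the mean and SD of the 3 libraries of a genotype (bars), each panel on its own linear axis. AT5G17090 is highest in the labelled triple mutant, AT3G28500 in the labelled double mutant and SPL5 in lhp1, while PORA and AT5G33370 are lower in the labelled triple mutant and in emf1 than in WT.

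Cystatins are small inhibitors of cysteine proteinases, and 2 members are annotated to the cystatin/monellin superfamily. That annotation does not say that their products are inhibitors. AT1G03710 held 26.1, 32.2 and 29.7 CPM in the labelled double mutant and 17.9, 14.6 and 16.6 CPM in lhp1, against 0.195, 0.379 and 0.201 CPM in WT. It held 11.8, 13.4 and 8.68 CPM in the labelled triple mutant, against 0.0631, 0.381 and 0.0745 CPM in emf1 (log2 fold change 5.81, SE 0.37, adjusted p = 1.67e-07, and 7.08 without emf1 replicate 2). The labelled double mutant stood above lhp1 without overlap, and the labelled triple mutant lay below lhp1 on library totals but overlapped it with TMM scaling, with emf1 beside WT. AT5G17090 ran in another order, with its highest values in the labelled triple mutant. It held 14.1, 13.6 and 15.5 CPM in the labelled double mutant and 1.68, 2.42 and 3.43 CPM in lhp1, against 0.130, 0.0632 and 0.0669 CPM in WT. It held 21.4, 24.1 and 17.6 CPM in the labelled triple mutant, against 0.0631, 0.0636 and 0 CPM in emf1, and with 2 counts in the 3 emf1 libraries the ratio was 464 (95% counting interval 128 to 3838) (adjusted p = 1.05e-08). In every library the labelled triple mutant was above the labelled double mutant, and both above lhp1. AT1G29110, a gene of the cysteine proteinase superfamily, showed the same order at lower values, with 7.18 ± 0.561 CPM in the labelled triple mutant, 4.94 ± 0.268 CPM in the labelled double mutant and 2.23 ± 0.390 CPM in lhp1. It averaged 0.707 ± 0.332 CPM in emf1 and 0.459 ± 0.186 CPM in WT, and was called higher in the labelled triple mutant than in emf1 (log2 fold change 3.24, SE 0.29, adjusted p = 3.11e-06).

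AT3G28500 encodes a member of the 60S acidic ribosomal protein family, whose proteins form the stalk of the large ribosomal subunit. It held 69.7, 64.3 and 70.4 CPM in the labelled double mutant and 8.98, 11.1 and 7.21 CPM in lhp1, against 0.847, 0.316 and 0.201 CPM in WT, and the labelled double mutant stood 7.48 times as high as lhp1. It held 19.9, 28.4 and 22.5 CPM in the labelled triple mutant, against 0.0631, 0.191 and 0.0745 CPM in emf1 (log2 fold change 7.52, SE 0.37, adjusted p = 2.08e-08, and 8.15 without emf1 replicate 2). Again the labelled triple mutant stood between the labelled double mutant and lhp1, with no overlap. AT5G45990, annotated as a crooked neck protein, a splicing factor in other organisms, held 12.3, 15.3 and 11.9 CPM in the labelled double mutant and 1.84, 3.35 and 2.83 CPM in lhp1, against 0.977, 0.695 and 0.535 CPM in WT. It held 18.4, 16.6 and 12.4 CPM in the labelled triple mutant, against 0.379, 0.890 and 0.372 CPM in emf1 (log2 fold change 4.70, SE 0.31, adjusted p = 3.02e-07), and the labelled triple mutant overlapped the labelled double mutant while lying above lhp1.

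SADHU5-1 (AT4G01525) is a pseudogene of the Sadhu family of retroelements, which are known in Arabidopsis as targets of epigenetic silencing. It was the one member without a protein-coding annotation. Its libraries held 27.5, 34.4 and 36.3 CPM in the labelled double mutant and 22.9, 24.7 and 24.2 CPM in lhp1, against 2.61, 0.442 and 2.21 CPM in WT. It held 28.6, 34.3 and 24.02 CPM in the labelled triple mutant, against 0.568, 1.53 and 0.447 CPM in emf1 (log2 fold change 4.94, SE 0.41, adjusted p = 1.56e-06, and 5.66 without emf1 replicate 2). Its values in the labelled triple mutant overlapped those of the labelled double mutant, and overlapped those of lhp1 on library totals but lay above them with TMM scaling.

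Levels of different members were compared per kb of exon, as CPM per kb. The highest means over the labelled double mutant and lhp1 belonged to AT3G28500, with 71.6 CPM per kb in the labelled double mutant and 9.57 in lhp1, and to VSP2, with 50.7 and 18.3. SADHU5-1 followed with 36.8 CPM per kb in the labelled double mutant and 26.9 in lhp1, and AT4G05475 with 40.4 and 21.2. Over all 45 members the level spanned 1.17 to 71.6 CPM per kb in the labelled double mutant (median 7.12) and 1.18 to 26.9 in lhp1 (median 2.80).

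AT5G22430 and AT2G20870 stood near 0 in the labelled triple mutant. AT5G22430, of the pollen Ole e 1 allergen and extensin family, had the highest ratio in lhp1. It held 6.35, 11.1 and 8.801 CPM in the labelled double mutant and 13.95, 15.04 and 11.5 CPM in lhp1, against 0, 0.0632 and 0.0669 CPM in WT, and with 2 counts in WT the ratio was 200.1 (95% counting interval 55.01 to 1658) in the labelled double mutant and 310.2 (95% counting interval 85.5 to 2567) in lhp1. It had 2 counts over all of the labelled triple mutant and 0 over all of emf1, which is under the floor of 3 counts for any fold. The 4 pollen markers summed to at most 1.02 CPM in any library. AT2G20870, annotated as a cell wall protein precursor, held 6.496, 10.3 and 9.11 CPM in the labelled double mutant and 15.4, 16.5 and 11.2 CPM in lhp1, against 0.586, 0.569 and 0.401 CPM in WT. It held 0.170, 0.0851 and 0.0616 CPM in the labelled triple mutant, against 0.0631, 0.0636 and 0 CPM in emf1, overlapping and near 0, and the ratio between them was 2.27 (95% counting interval 0.325 to 25.1). It overlaps a locus on the other strand. Both genes were higher in every lhp1 library than in any library of the labelled double mutant.

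AT5G33370, a GDSL-like lipase gene, showed the same pattern from a higher WT level. Its libraries held 19.6, 24.2 and 22.6 CPM in the labelled double mutant and 31.4, 33.4 and 26.9 CPM in lhp1, against 6.12, 5.43 and 5.89 CPM in WT. It held 0, 0.0851 and 0.246 CPM in the labelled triple mutant, against 0.0631, 2.61 and 0 CPM in emf1, where emf1 replicate 2 alone stood above the rest (adjusted p = 0.0712). Without emf1 replicate 1 or 3 the difference was called (adjusted p = 0.02 and 0.0159), and without emf1 replicate 2 the log2 fold change of -2.91 became 1.54. The other GDSL-like lipase gene, AT1G20120, was highest in the labelled double mutant. It averaged 3.28 ± 0.518 CPM in the labelled triple mutant, 10.9 ± 0.543 CPM in the labelled double mutant, 2.02 ± 0.307 CPM in lhp1, 0.996 ± 0.536 CPM in emf1 and 0.568 ± 0.222 CPM in WT, and was called higher in the labelled triple mutant than in emf1 (log2 fold change 1.57, SE 0.32, adjusted p = 0.00145).

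A glycine-rich protein gene, AT1G04660, was mainly high in the labelled double mutant. It held 19.9, 15.2 and 17.5 CPM in the labelled double mutant and 2.09, 3.49 and 2.63 CPM in lhp1, against 0.651, 1.07 and 0.401 CPM in WT. It held 0.341, 0.0851 and 1.601 CPM in the labelled triple mutant, against 0, 0.0636 and 0.0745 CPM in emf1, with 2 counts in all of emf1, a ratio of 17.6 (95% counting interval 4.47 to 151) and an adjusted p of 0.0103. Replicate 3 of the labelled triple mutant carried this call, since without it the adjusted p was 0.14 and the log2 fold change 1.99. AT1G11070, a hydroxyproline-rich glycoprotein gene, had the second highest mean of any member in emf1. Its libraries held 23.4, 23.6 and 22.6 CPM in the labelled double mutant and 4.49, 5.06 and 5.25 CPM in lhp1, against 0.717, 0.505 and 0.669 CPM in WT. It held 3.24, 2.72 and 10.96 CPM in the labelled triple mutant, against 2.27, 2.03 and 2.68 CPM in emf1 (log2 fold change 1.19, SE 0.39, adjusted p = 0.0244), with replicate 3 of the labelled triple mutant far above the other two. Without that library the log2 fold change was 0.25 (adjusted p = 0.354), and the call was also lost without emf1 replicate 1 or 2 (adjusted p = 0.0585 and 0.073).

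For FLS2, CYP706A3 and AT1G02190, all annotated with enzyme names, every library of the labelled double mutant lay above every one of lhp1. FLS2 (AT5G63580), which here denotes flavonol synthase 2 and not the flagellin receptor, held 29.8, 40.4 and 38.5 CPM in the labelled double mutant and 5.93, 5.35 and 4.85 CPM in lhp1, against 0.651, 0.632 and 0.803 CPM in WT. It held 8.18, 11.5 and 8.99 CPM in the labelled triple mutant, against 0.126, 0.763 and 0 CPM in emf1 (log2 fold change 4.80, SE 0.44, adjusted p = 3.31e-06, and 6.84 without emf1 replicate 2). The labelled triple mutant lay between the labelled double mutant and lhp1. CYP706A3 (AT5G44620), a cytochrome P450 known to oxidise terpenes in flowers, held 19.4, 19.6 and 22.1 CPM in the labelled double mutant and 6.58, 10.5 and 6.33 CPM in lhp1, against 0.521, 0.505 and 0.803 CPM in WT. It held 6.22, 0.681 and 1.79 CPM in the labelled triple mutant, against 0, 0.0636 and 0.0745 CPM in emf1, with 2 counts in emf1 and a ratio of 62.3 (95% counting interval 16.8 to 521) (adjusted p = 0.000391). AT1G02190, of the fatty acid hydroxylase superfamily, held 18.5, 22.2 and 18.2 CPM in the labelled double mutant and 7.298, 10.7 and 7.81 CPM in lhp1, against 0.586, 0.442 and 0.401 CPM in WT. It held 5.11, 0.255 and 2.03 CPM in the labelled triple mutant, against 0.189, 0.0636 and 0.0745 CPM in emf1 (log2 fold change 4.25, SE 0.87, adjusted p = 0.00133). Both genes owed most of their level in the labelled triple mutant to replicate 1, and without it the log2 fold change over emf1 was 4.47 for CYP706A3 and 3.21 for AT1G02190, which was 4.91 without emf1 replicate 1.

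VSP2 (AT5G24770), a vegetative storage protein gene that responds to jasmonate and wounding, varied widely between libraries of the labelled triple mutant and of WT. Its libraries held 72.6, 90.03 and 68.1 CPM in the labelled double mutant and 23.7, 32.01 and 27.5 CPM in lhp1, against 2.22, 7.46 and 9.36 CPM in WT. It held 31.4, 7.74 and 7.21 CPM in the labelled triple mutant, against 0.315, 0.445 and 0.372 CPM in emf1 (log2 fold change 5.19, SE 0.77, adjusted p = 0.000122), and replicate 1 of the labelled triple mutant was the one library of its group above all 3 of WT. Without it the log2 fold change over emf1 was 4.10. JAL23 (AT2G39330), a jacalin-related lectin gene, had 12.5 ± 3.07 CPM in the labelled double mutant and 2.65 ± 1.47 CPM in lhp1, against 0.239 ± 0.0756 CPM in WT. It had 4 counts in the labelled triple mutant and 1 in emf1, a ratio of 4.53 (95% counting interval 0.449 to 223), and was not called (adjusted p = 0.299).

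LOG5 (AT4G35190), an enzyme gene of cytokinin activation, had 8.41 ± 1.28 CPM in the labelled double mutant and 6.36 ± 1.601 CPM in lhp1, against 1.68 ± 0.636 CPM in WT. The labelled triple mutant held 5.46, 0.340 and 1.601 CPM, against 0.189, 0.445 and 0 CPM in emf1, and was called higher although single libraries overlapped (log2 fold change 3.30, SE 0.87, adjusted p = 0.00698). ENDO3 (AT4G21590), an endonuclease gene, had its highest values in lhp1. It held 6.14, 5.12 and 6.89 CPM in the labelled double mutant and 7.699, 14.1 and 12.5 CPM in lhp1, against 1.04, 1.39 and 1.67 CPM in WT. It held 2.98, 0.596 and 1.85 CPM in the labelled triple mutant, against 0, 0.572 and 0.0745 CPM in emf1 (log2 fold change 2.87, SE 0.71, adjusted p = 0.00493), and the log2 fold change was 2.29 without emf1 replicate 1 and 5.31 without emf1 replicate 2.

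PORA (AT5G54190), a light-dependent protochlorophyllide oxidoreductase of chlorophyll synthesis, held 33.3, 28.4 and 33.8 CPM in the labelled double mutant and 23.3, 19.6 and 34.2 CPM in lhp1, against 4.95, 8.91 and 9.63 CPM in WT. It held 0.511, 0.851 and 3.63 CPM in the labelled triple mutant, against 0.883, 2.67 and 0.819 CPM in emf1, with overlap (adjusted p = 0.853). Both genotypes lay below every WT library. AT3G55710, a UDP-glycosyltransferase gene, held 32.9, 38.8 and 38.5 CPM in the labelled double mutant and 37.1, 32.3 and 29.9 CPM in lhp1, against 8.01, 8.403 and 9.77 CPM in WT. It held 0.938, 0 and 1.17 CPM in the labelled triple mutant, against 0, 0.763 and 0.298 CPM in emf1, again overlapping and below WT (adjusted p = 0.353). AT5G38000, of a zinc-binding dehydrogenase family, averaged 5.76 ± 0.542 CPM in the labelled double mutant and 5.49 ± 1.01 CPM in lhp1, against 1.67 ± 0.700 CPM in WT. It averaged 0.693 ± 0.159 CPM in the labelled triple mutant, against 0.113 ± 0.0442 CPM in emf1 (log2 fold change 2.45, SE 0.49, adjusted p = 0.00116), and its level is uncertain because AT5G37940 is 96.3% identical to it.

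LEA18 (AT2G35300), a late embryogenesis abundant gene of a class known from drying seeds, was highest in the labelled triple mutant. It held 0.706, 3.23 and 3.02 CPM in the labelled double mutant and 2.49, 0.713 and 3.03 CPM in lhp1, against 0, 0.253 and 0.0669 CPM in WT. It held 9.55, 7.999 and 9.79 CPM in the labelled triple mutant, against 1.45, 1.08 and 0.149 CPM in emf1 (log2 fold change 3.18, SE 0.64, adjusted p = 0.00125). All 3 libraries of the labelled triple mutant stood above all 12 others, and the labelled double mutant overlapped lhp1 and emf1. The 14 seed storage and late embryogenesis markers summed to 81.9 to 106 CPM in the labelled triple mutant, against 31.6 to 34.7 CPM in the labelled double mutant, and their part in the LEA18 values was not tested. M17 made most of that difference, at 66.4 to 90.6 CPM against 16.4 to 19.4 CPM, while PAP85 overlapped between the 2 genotypes, at 10.5 to 11.9 CPM in the labelled triple mutant and 10.03 to 17.1 CPM in the labelled double mutant. ABCF2 (AT5G09930), a soluble ABC protein of the F subfamily, was the one member called lower in the labelled triple mutant than in emf1 (log2 fold change -1.76, SE 0.37, adjusted p = 0.00157). It held 4.801, 3.07 and 5.601 CPM in the labelled double mutant and 4.65, 2.64 and 3.57 CPM in lhp1, against 1.303, 0.821 and 1.34 CPM in WT. It held 1.79, 1.19 and 1.11 CPM in the labelled triple mutant, against 5.93, 4.13 and 2.53 CPM in emf1, so emf1 stood at the height of the labelled double mutant and lhp1. The level of ABCF2 is uncertain, since an opposite-strand locus overlaps it.

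The 6 other members are of scarce annotation or other families. AT1G30160, with a DUF295 domain and an overlap on the other strand, averaged 6.73 ± 0.814 CPM in the labelled triple mutant, against 0.265 ± 0.0483 CPM in emf1 (log2 fold change 4.50, SE 0.23, adjusted p = 2.08e-08), and 9.83 ± 0.503 CPM in the labelled double mutant and 3.13 ± 0.140 CPM in lhp1, against 0.778 ± 0.108 CPM in WT. AT3G27025, an uncharacterised protein gene, held 22.9, 1.62 and 3.88 CPM in the labelled triple mutant, against 0.820, 0.699 and 0.670 CPM in emf1 (log2 fold change 3.55, SE 0.76, adjusted p = 0.00185), and the mean of the labelled triple mutant came mostly from replicate 1. Its means were 5.64 CPM in the labelled double mutant and 2.87 CPM in lhp1, against 0.821 CPM in WT. AT2G45135, of the RING/U-box family of ubiquitin ligases, averaged 1.13 ± 0.210 CPM in the labelled triple mutant, against 0.303 ± 0.147 CPM in emf1 (log2 fold change 1.74, SE 0.37, adjusted p = 0.00174), and 3.12 CPM in the labelled double mutant and 3.27 CPM in lhp1, against 0.218 CPM in WT. AT5G15500, an ankyrin repeat gene, averaged 1.96 ± 0.898 CPM in the labelled triple mutant, where emf1 had 2 counts (ratio 44.2 (95% counting interval 11.8 to 371), adjusted p = 0.000118), and 2.21 CPM in the labelled double mutant and 3.47 CPM in lhp1, against 0.329 CPM in WT.

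Neither of the remaining members was called between the labelled triple mutant and emf1. AT3G04960, with a DUF3444 domain, averaged 2.42 ± 2.25 CPM in the labelled triple mutant, against 0.812 ± 0.455 CPM in emf1 (adjusted p = 0.0684), and 7.67 CPM in the labelled double mutant and 4.604 CPM in lhp1, against 1.17 CPM in WT. It was called without replicate 2 of either genotype (adjusted p = 0.00572 without that of the labelled triple mutant and 0.0419 without that of emf1). AT5G62730, a transporter gene of the major facilitator superfamily, averaged 0.0978 ± 0.0219 CPM in the labelled triple mutant, against 0.268 ± 0.128 CPM in emf1 (adjusted p = 0.0985), and 2.77 CPM in the labelled double mutant and 4.37 CPM in lhp1, against 0.284 CPM in WT. Without emf1 replicate 2 it was called lower (adjusted p = 0.0477).

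Comparisons with WT use libraries that chose the members, so they are given as a description, with no p for a member. At an adjusted p under 0.05 in the edgeR fit 26 members were higher and 5 lower in the labelled triple mutant than in WT, beside 34.6% and 35.7% of all tested loci. The median log2 fold change was 2.54 over the members and -0.02 over all tested loci, and without replicate 1 of the labelled triple mutant the members' median was 1.56. Members had been chosen low in WT relative to other genotypes, so a higher value is the easier outcome. The 5 lower members were AT5G33370 (log2 fold change -5.24, SE 0.94), AT3G55710 (-3.33, SE 0.48), AT2G20870 (-2.07, SE 0.56), PORA (-1.92, SE 0.52) and AT5G38000 (-1.03, SE 0.32). Each of them was above WT in every library of the labelled double mutant and of lhp1, and below WT in every library of the labelled triple mutant. Without replicate 3 of the labelled triple mutant the log2 fold change was -6.62 for AT5G33370, -3.97 for AT3G55710 and -3.29 for PORA.

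The largest higher values of the labelled triple mutant over WT were those of AT4G05470 (ratio 405 (95% counting interval 112 to 3353)), AT5G17090 (log2 fold change 7.99, SE 0.35) and AT4G05475 (7.14, SE 0.48). LEA18 (6.49, SE 0.87), AT3G47030 (6.46, SE 0.31) and AT1G66320 (6.43, SE 0.35) followed. The values of loci near 0 in WT turned on single libraries, with 10.81 for AT4G05475 without WT replicate 2 and 7.56 for AT1G66320 without WT replicate 3. VSP2 had a log2 fold change of 1.47, SE 0.52, and of 0.45 without replicate 1 of the labelled triple mutant.

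In emf1 against WT the fit gave 6 members higher and 18 lower, beside 30.7% and 33.9% of all tested loci, again as a description. The median log2 fold change was -0.79 over the members and -0.03 over all tested loci. When emf1 and WT alone were fitted, 26 members passed the filter, with 3 higher and 9 lower, beside 29.4% and 31.0% of all loci tested in that fit, and without emf1 replicate 3 the 18 became 11. This comparison shares the WT libraries with that of the labelled triple mutant. With upper-quartile scaling the median over all tested loci stood at -0.19 in the labelled triple mutant and -0.20 in emf1, and 4796 loci were higher and 8398 lower in emf1, against 6284 and 6947 with TMM. With that scaling 26 members were higher and 5 lower in the labelled triple mutant than in WT, and 5 higher and 18 lower in emf1.

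Among members with more than 3 counts in WT, the largest values of emf1 above WT were those of LEA18 (log2 fold change 3.31, SE 1.05), ABCF2 (2.20, SE 0.37), AT1G11070 (2.20, SE 0.50) and AT3G47030 (1.45, SE 0.40). Among members with more than 3 counts in emf1, those farthest below WT were AT3G55710 (log2 fold change -4.26, SE 0.54), VSP2 (-3.72, SE 0.83), AT5G38000 (-3.49, SE 0.43) and IDD16 (-3.06, SE 0.56). PORA (-2.08, SE 0.52), AT5G33370 (-2.33, SE 0.64) and AGL17 (-2.41, SE 0.60) also lay below WT. AT3G55710 had -3.66 and -5.55 without emf1 replicates 1 and 2, and without emf1 replicate 2 the log2 fold change was -6.77 for AT5G33370, -2.82 for PORA and -3.27 for AGL17, which had -1.82 without emf1 replicate 1. CYP706A3 had 2 counts in emf1 and stood 13.7 (95% counting interval 3.45 to 118) times lower than WT.

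**Figure D5:**
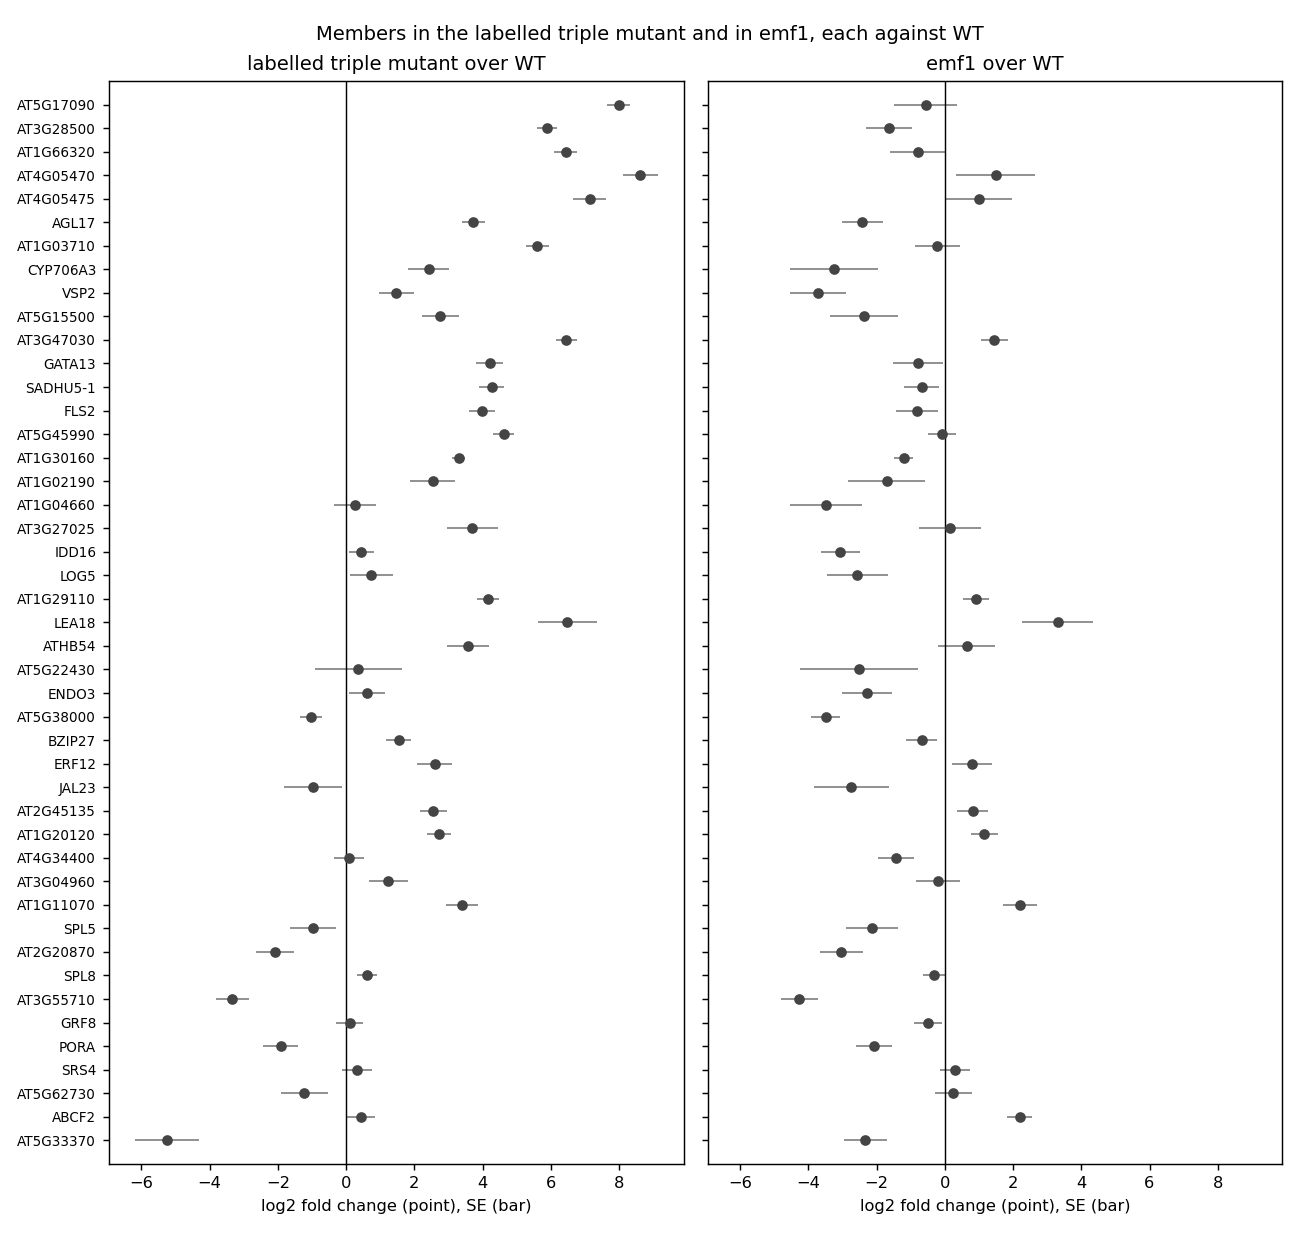
Log2 fold change (point) and SE (bar) of each member over WT, in the labelled triple mutant (left) and in emf1 (right), from the edgeR fit. Of the 45 points, 37 lie above 0 in the labelled triple mutant and 14 in emf1.

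The labelled double mutant was compared with lhp1, and both had chosen the members, so the counts are a description. On TMM-scaled CPM, 28 members had all 3 libraries of the labelled double mutant above all 3 of lhp1, and 7 had them all below. The same was true of 16.4% and 15.3% of all tested loci. The largest ratios of the labelled double mutant to lhp1 were 7.48 for AT3G28500, 7.46 for AT1G66320, 6.74 for FLS2 and 6.41 for AT1G04660. The 7 members lower than in lhp1 were ENDO3, with a ratio of 0.530, AT2G20870 with 0.601, SPL5 with 0.603, GRF8 with 0.623, AT5G22430 with 0.648, AT5G33370 with 0.724 and GATA13 with 0.729. Of these 7, GATA13 alone had every library of the labelled triple mutant above every one of WT.

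The labelled triple mutant lay wholly below the labelled double mutant for 33 members and wholly above it for 5, or 3 on CPM over library totals, where the labels differ by lhp1 and the kits differ too. Over all tested loci 37.6% lay wholly below and 34.8% wholly above. Libraries of the labelled double mutant had chosen the members for high values, so a lower value in the labelled triple mutant is the easier outcome and the counts are a description. Its mean ranged from 0.00499 to 3.93 times that of the labelled double mutant, with a median of 0.299. On either scale LEA18 (3.93), AT5G17090 (1.46) and AT1G29110 (1.45) lay wholly above. At the other end AT5G33370 stood at 0.00499, JAL23 at 0.00847 and AT2G20870 at 0.0122 times the labelled double mutant. These ratios are rough, since the labelled triple mutant held 5, 4 and 4 counts of them in all. AT5G22430 had 2 counts in the labelled triple mutant, against 374 in the labelled double mutant, and its ratio is left out.

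Lists of other genes were set beside the members, each chosen with earlier results known. Of 18 tested genes of other MADS-box clades, AGL17 included, 13 were higher and 0 lower in the labelled triple mutant than in emf1, beside 23.6% and 20.5% of all tested loci, with a median log2 fold change of 1.59. Those called included TT16 (3.75), AGL19 (3.81), ANR1 (3.77), AGL21 (2.57), the floral repressor FLC (1.62) and the flowering promoter SOC1 (0.82). AGL21 and ANR1 belong to the clade of AGL17 and are known from root development. AGL21 stood at 2.599 to 4.73 CPM in the labelled double mutant and 2.005 to 4.06 CPM in lhp1, against 2.801 to 3.41 CPM in WT, and ANR1 at 5.15 to 8.27 and 1.35 to 2.02 CPM, against 0.261 to 0.758 CPM. Against WT, 8 of the 18 were higher and 3 lower in the labelled double mutant, beside 5.31% and 2.52% of all tested loci, and 2 were higher and 3 lower in lhp1, beside 0.772% and 0.542%. AGL17 is among the higher genes in both, as the rule for members made likely.

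Among 14 tested developmental regulators known as Polycomb targets, 5 were higher and 0 lower in the labelled triple mutant than in emf1, beside 23.6% and 20.5% of all tested loci (median log2 fold change 0.83). They were the homeobox genes BP (0.48), KNAT2 (1.08) and KNAT6 (1.09), the MADS-box gene PHE1 (5.94) and the seed dormancy gene DOG1 (0.93). Of 23 tested genes of the Polycomb and histone reader machinery, 3 were higher and 9 lower, and of 11 tested SWEET sugar transporter genes 2 were higher and 2 lower, to be read beside the same 23.6% and 20.5%. None of these 3 lists shares a gene with the members. The 13 tapetum and anther markers summed to 5.02 to 10.8 CPM over the 15 libraries, and 3 of them passed the filter on low counts. Most of this sum came from LAP6, with genotype means of 4.51 to 7.04 CPM, and ATA20, with 1.05 to 2.74 CPM. DYT1, MS1, ATA7, A9 and CYP703A2 stood at or near 0 in all genotypes.

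Beyond their levels the members shared few features of annotation. The median exon length was 1518 bases in the members and 1776 in all tested loci, and a single exon was annotated for 15.6% of the members and 14.4% of the tested loci. An overlap with a locus on the other strand was annotated for 13.3% of the members and 26.7% of the tested loci. Members lay on all 5 chromosomes, 12 on chromosome 1, 8 on chromosome 2, 6 on chromosome 3, 7 on chromosome 4 and 12 on chromosome 5. Their median WT level was 0.673 CPM, against 14.5 CPM for all tested loci, as the rule favours loci that are low in WT.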

How the data were processed

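Strand-specific mRNA libraries had been made with the KAPA stranded kit from 15 seedling samples, per the labels' protocols. The authors deposited raw read counts per annotated locus, 1 table per library. The submitters' processing notes name the tools TopHat2 (2.1.1), HTSeq and edgeR and the build TAIR10. The strand setting of the counting is not given in the sources used here. All 33602 rows name a locus and entered the library totals as deposited. A single count equals 0.0852 CPM in the smallest library, so intervals and floors cover counting error only.

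Members were taken from mean CPM over library totals, and levels in the text are on this scale. Fold changes and tests came from edgeR 4.0.16 in R 4.3.3, with TMM factors of 0.817 to 1.146, the filterByExpr function (20477 loci kept) and 1 quasi-likelihood fit over all 15 libraries with a mean per genotype and no covariate. The p-values were adjusted by Benjamini-Hochberg over all tested loci, with a threshold of 0.05, and the common biological coefficient of variation was 16.3%. Comparisons that use a genotype of the rule are a description, and p-values are given for members only between the labelled triple mutant and emf1. SEs are the size of the log2 fold change over the square root of F. The labels call the replicates biological repeats without saying how they were grown apart. Where a group held 1 to 3 counts, the ratio of pooled counts is given with an exact 95% interval. Names, product words, gene order, exon length and overlaps came from the RefSeq annotation of TAIR10.1, a later build than that of the counts, and coordinates and sequences are therefore left out. Near-identical copies were searched with BLAST 2.17.0 (95% identity over 50% of the length). The fit was tested on simulated data.

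The members, the gene lists and the tests were chosen with earlier results of these data known. Named members were the 10 with the highest lower ratio to WT (at least 5 CPM in both mutants), the 6 highest per kb, the 5 highest and 5 lowest called between the labelled triple mutant and emf1, up to 5 called lower than WT in each of these 2, the 4 largest and 4 smallest ratios of the labelled double mutant to lhp1, neighbours, list members and the 3 loci on each side of the threshold. These made 31 members, and the other 14 are described as well so that every member is accounted for. Alternatives were upper-quartile factors, no filter, DESeq2 1.42.0, only the 2 groups compared, a replicate block, and each library left out.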

Additional observations from a re-analysis of the deposited data

How the results depend on the processing

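The number of members follows from the thresholds. It was 122 at 2 times the WT mean, 29 at 4 times and 19 at a mean of 5 CPM, and 43 to 50 when any library of WT, lhp1 or the labelled double mutant was left out. Between the labelled triple mutant and emf1, the 33 members called higher became 21 when only the 2 groups were fitted, where 29 of the members passed the filter, and 29 to 34 without 1 library. The 1 member called lower became 2 with DESeq2, 0 without the members that overlap a locus on the other strand (chosen after seeing the data) and 1 to 2 without 1 library. In emf1 against WT, 3 members were higher and 9 lower when only the 2 groups were fitted, and 4 to 6 were higher and 11 to 15 lower without 1 library. In the labelled triple mutant against WT the counts were 25 to 29 higher and 4 to 6 lower without 1 library. Counts not named here stayed within 1.5 times those of the report, and no member's called direction turned under these settings.

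Among the labelled triple mutant, emf1 and WT, samples with the same number showed no common deviation (correlations of -0.288 to 0.105 between groups). Those with different numbers had correlations of -0.217 to 0.262. Because the values were centred within groups of 3 libraries, these correlations cannot settle whether the numbers mark shared batches. The other genotypes were not examined. With a replicate block the counts were 32 higher and 1 lower in the labelled triple mutant against emf1, 26 and 5 against WT, and 5 and 17 in emf1 against WT. The planned look at promoter motifs was not run, since no sequence of the build of the counts was used here. Mean levels were under 1 CPM for 41 members in emf1 and 33 in WT, where 1 count is worth up to 0.0852 CPM.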
